A study of Mus musculus with 168 samples.

Results

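The Q175 mice and their controls were compared in the cortex at 2 months of age, the youngest age of an allelic series of huntingtin (Htt) knock-in mice. The comparison was defined by the sample titles and holds 24 of the 168 cortex libraries of the series: 8 heterozygous Q175 mice against 16 controls, of which 8 are heterozygous Q20 mice and 8 are wild type (WT), with 4 females and 4 males per genotype. Every Q175 and Q20 mouse carries 1 mouse Htt allele and 1 allele in which human HTT exon 1 was knocked in, with a CAG tract of nominally 175 or 20 repeats. All mice have the C57BL/6 strain label and received no treatment. The Q175 line arose by spontaneous CAG expansion in the Q140 line, and the WT mice are littermates of the Q20 line. The housing label places the Q175 mice with mice of the Q175 line and the Q20 and WT mice with mice of the Q20 line, so that allele, line and housing cannot be told apart. Each library comes from the cortex of 1 mouse and small RNA was sequenced in single 36-base reads. Htt mRNA is not part of these data, and the genotype labels could not be checked from them.

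MicroRNAs are short RNAs that are cut from a hairpin precursor by Drosha and Dicer and guide Argonaute proteins to target mRNAs. Pairing rests mainly on the seed, bases 2 to 8 of the mature strand, and microRNAs that share a seed are grouped into families with overlapping targets. Many microRNAs are also restricted to a tissue, so a small RNA library shows whether a dissected piece holds a neighbouring structure. The Mir200 family and the Mir183 cluster are known from olfactory and sensory epithelia and the olfactory bulb, and Mir204, Mir448 and Mir1298 from the choroid plexus. The Mir183 cluster was listed here as a marker of sensory tissue and of the thalamus.

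The sequences that carry the results of the 2-month comparison are shown here as mature strands from RefSeq (GRCm38.p6), 5′ to 3′, with the seed in capitals. A mature sequence was found for 33 of the 41 microRNAs looked up. The Mir200 family carries 2 seeds, and its 5 hairpins lie at 2 loci. Mir200b, Mir200a and Mir429 lie on the minus strand of chromosome 4 between 156053905 and 156055750, inside the gene Ttll10, where Mir429 also overlaps an exon of the transcript Gm13648. Mir141 and Mir200c lie on the minus strand of chromosome 6 between 124717914 and 124718390, in an intron of the noncoding gene Gm15884.
miR-200b-3p: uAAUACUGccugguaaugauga
miR-200c-3p: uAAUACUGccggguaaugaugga
miR-429-3p: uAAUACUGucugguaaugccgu
miR-200a-3p: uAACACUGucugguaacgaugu
miR-141-3p: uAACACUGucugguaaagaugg
The Mir183 cluster is transcribed from chromosome 6, minus strand, between 30165918 and 30169737, outside annotated genes. Its 3 members carry different seeds.
miR-182-5p: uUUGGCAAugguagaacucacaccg
miR-183-5p: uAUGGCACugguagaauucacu
miR-96-5p: uUUGGCACuagcacauuuuugcu
The microRNAs with the smallest p among the abundant ones are Mir99a, Mir487b, Mir9-3, Mir148a and Mir7b. Mir148a and Mir148b share their seed.
miR-99a-5p: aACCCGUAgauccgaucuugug
miR-9-5p: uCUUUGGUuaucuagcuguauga
miR-148a-3p: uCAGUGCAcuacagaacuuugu
miR-148b-3p: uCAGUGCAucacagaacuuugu
miR-7b-5p: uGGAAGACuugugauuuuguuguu

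For each library the authors deposited an estimated count per Ensembl transcript. The depth of the 24 libraries was 4505007 to 6109577 counts (median 5156502), and between 98.98% and 99.574% of these counts fell on annotated microRNAs. Levels are given as CPM, the count scaled to a library of fixed size, after TMM normalization, which rescales libraries by the trimmed mean of their log ratios. Of the 13 marker lists of tissues and cell types, the neuronal list (Mir124, Mir9, Mir128, Mir132 and Mir138 loci) was the most abundant, between 102666 and 128308 summed CPM in the controls and between 108223 and 117908 in the Q175 mice. Mir124a-1, a microRNA specific to neurons, stood at a median of 7810 CPM in Q175 and 7475 in control mice.

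No microRNA passed a false discovery rate (FDR) of 0.05 between Q175 and control mice at 2 months. The test was the quasi-likelihood F test of edgeR, adjusted for sex, over the 532 microRNAs with a mean of at least 1 count. The smallest adjusted p was 0.833, 29 microRNAs (5.45%) had an unadjusted p under 0.05, 11 (2.07%) of them higher and 18 (3.38%) lower in Q175, and DESeq2 also called 0 with 28 at an unadjusted p under 0.05. In none of the 532 were the 8 Q175 values and the 16 control values fully separated (0%). The median log2 difference over all microRNAs was 0.01 and the median size of a difference was 0.08, and 277 of 532 were positive. The values described below are therefore differences that did not pass the correction, each with an adjusted p of at least 0.833, and each is given with its spread.

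**Figure D1:**
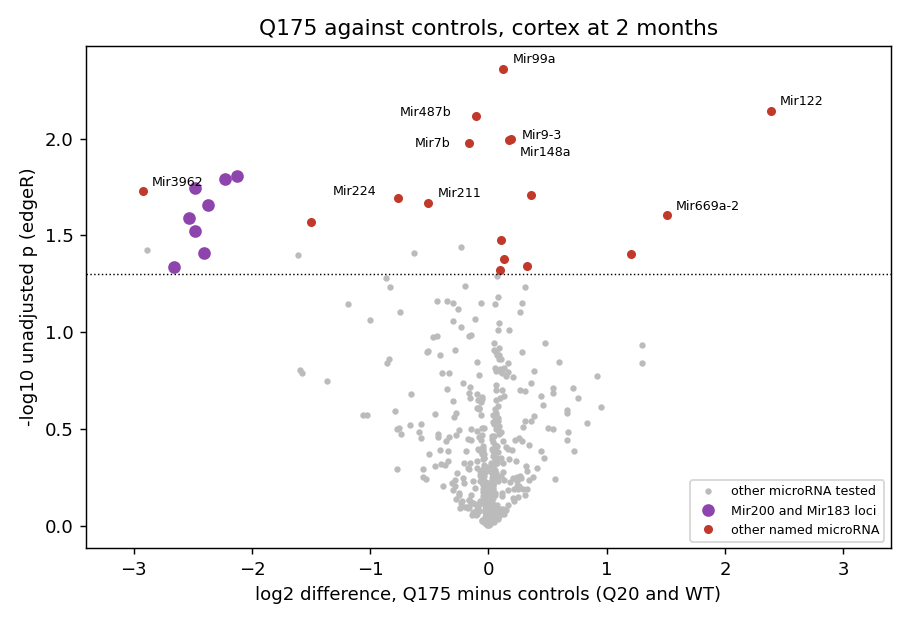
Difference between Q175 (n = 8) and control (n = 16) cortex at 2 months for each of 532 microRNAs (x axis, log2) against the unadjusted p of edgeR (y axis, -log10), with the dotted line at 0.05. The 8 microRNAs of the Mir200 loci and the Mir183 cluster form a group at log2 differences between -2.66 and -2.13, while abundant microRNAs with a smaller p, such as Mir99a and Mir487b, lie close to 0.

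Among the microRNAs with higher values in Q175, Mir99a had the smallest p. Mir99a belongs to the Mir99 and Mir100 family and lies in an intron of its host gene Mir99ahg on chromosome 16 (77598936 to 77599000, plus strand). Its level ran from 1200 CPM over a median of 1272 to 1367 in the Q175 mice and from 1077 over 1163 to 1359 in the controls. The control median was exceeded by each of the 8 Q175 mice, 3 of which also exceeded every control, and the groups overlapped. The log2 difference was 0.13 with a standard error (SE) of 0.04 (edgeR's unadjusted p = 0.00436, adjusted p = 0.833). Against Q20 mice the difference was 0.15 and against WT mice 0.09, 2 comparisons that share the Q175 libraries. For Mir99a the Q20 level differed from the WT level by -0.07 (edgeR's unadjusted p = 0.139). The other members of its family, Mir100 at 0.12 (SE 0.08) and Mir99b at 0.06 (SE 0.10), were also positive and did not reach an unadjusted p of 0.05.

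Mir9-3, Mir148a and Mir148b also had higher values in Q175, and their size rested in part on 1 mouse. Mir9-3 is 1 of the loci of miR-9, an abundant regulator of neural progenitors and neurons, and lies in an intron of Mir9-3hg. Its level ran from 477 CPM over a median of 607 to 784 in Q175 and from 438 over 542 to 597 in the controls, with 5 of 8 Q175 mice above every control, and a log2 difference of 0.19 (SE 0.07, edgeR's unadjusted p = 0.0101). Both mature strands of Mir9-3 are identical to those of Mir9-2, so that reads of these loci cannot be told apart. Mir9-2, counted at a median of 39166 CPM in Q175 and 38194 in the controls, differed by 0.05 (edgeR's unadjusted p = 0.250). Mir148a, a member of the Mir148 and Mir152 family that lies between annotated genes on chromosome 6, ran from 2156 over 2414 to 3149 CPM in Q175 and from 1832 over 2223 to 2522 in the controls (log2 difference 0.17, SE 0.06, edgeR's unadjusted p = 0.0101). Of the 8 Q175 mice, 7 lay above the control median of Mir148a and 3 above every control. Mir148b, from an intron of Copz1, ran from 870 over 914 to 1181 CPM in Q175 and from 784 over 885 to 987 in the controls (log2 difference 0.10, SE 0.05, edgeR's unadjusted p = 0.0479). Without Q175 male 4, the log2 difference was 0.12 for Mir148a (edgeR's unadjusted p = 0.0515), 0.12 for Mir9-3 (edgeR's unadjusted p = 0.0623) and 0.05 for Mir148b (edgeR's unadjusted p = 0.229). In the libraries with L1 or L2 in their names alone, an L code whose meaning the labels do not give, it was 0.04 for Mir9-3, 0.11 for Mir148a and 0.07 for Mir148b (edgeR's unadjusted p = 0.559, 0.148 and 0.130).

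A pair of further abundant microRNAs, Mir487b and Mir7b, had lower values in Q175. Mir487b, 1 of the many microRNAs of the imprinted Dlk1-Dio3 region on chromosome 12 (109727333 to 109727414, plus strand), ran from 777 CPM over a median of 906 to 952 in Q175 and from 869 over 951 to 1024 in the controls. Values under the control median were found in 7 of 8 Q175 mice and under every control in 2, and the log2 difference was -0.10 (SE 0.04, edgeR's unadjusted p = 0.00766). The difference of Mir487b was -0.14 against WT and -0.07 against Q20, and the Q20 level differed from the WT level by -0.08 (edgeR's unadjusted p = 0.0578). Mir7b, of the family of miR-7, which is known from neuroendocrine cells and neurons, ran from 47.5 over 58.0 to 69.6 CPM in Q175 and from 53.6 over 66.6 to 72.7 in the controls (log2 difference -0.17, SE 0.06, edgeR's unadjusted p = 0.0106). The Mir7b difference was -0.18 against Q20 and -0.16 against WT. Mir99a, Mir487b and Mir7b were the abundant microRNAs outside the Mir200 and Mir183 loci whose unadjusted p stayed under 0.05 in each of the 24 fits that left out 1 library, with largest values of 0.0141, 0.0245 and 0.0425 (edgeR). No fit of these 24 called a microRNA at the FDR.

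**Figure D2:**
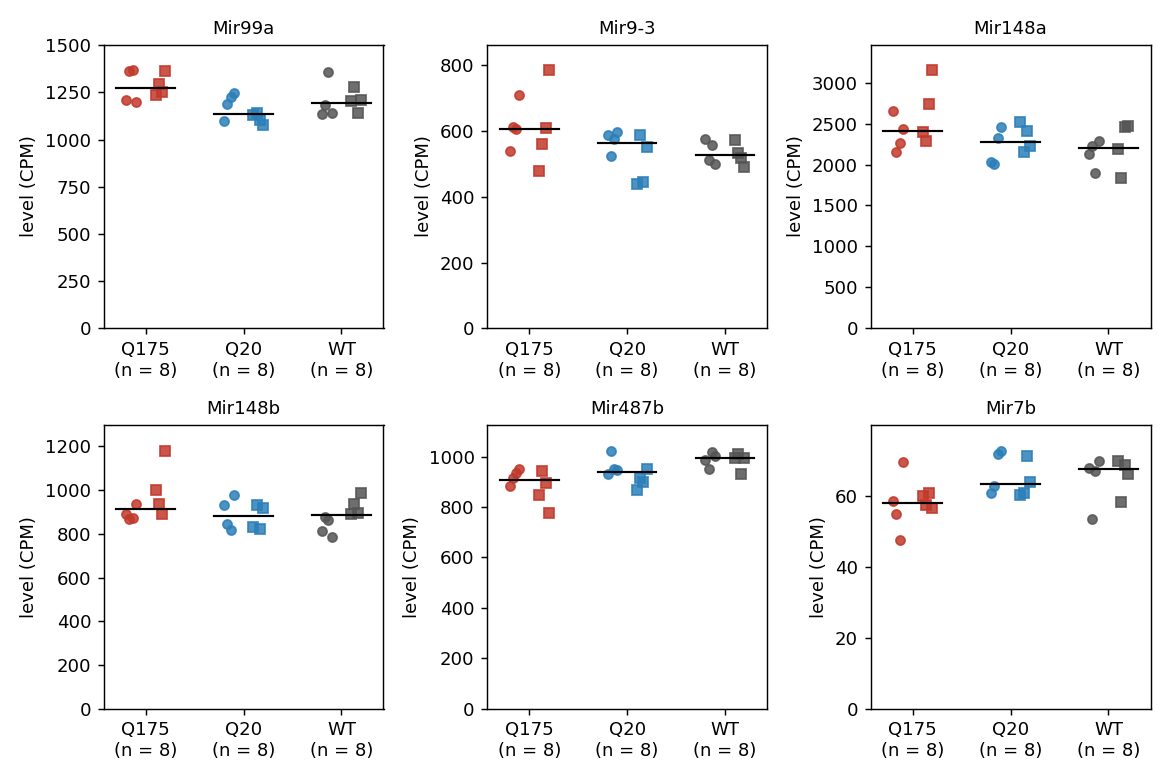
Level in CPM (y axis, linear from 0) of Mir99a, Mir9-3, Mir148a, Mir148b, Mir487b and Mir7b in each of the 24 libraries at 2 months, by genotype (x axis: Q175, Q20 and WT, n = 8 each), with females as circles, males as squares and the median as a line. In each panel the Q175 values overlap the control values, as for Mir99a with 1200 to 1367 CPM against 1077 to 1359.

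Across all 7 genotypes at 2 months (normalized together, 8 mice each), Mir99a had its highest mean in Q175 with 1289 CPM ± 66.2 (SD), followed by Q140 with 1218 ± 108 (SD), and its lowest in Q20 with 1144 ± 55.9 (SD). The means of WT (1212 CPM), Q92 (1200), Q111 (1191), Q80 (1159) and Q20 all lay within 1 SD of Q140 from its mean. The Q175 mean lay above that of Q140 by more than the SD of Q175 and by less than the SD of Q140, and this difference was not tested. For Mir148a the means of Q92 (2517 CPM ± 334, SD) and Q175 (2516 ± 317, SD) were the highest, while Q140, the line from which Q175 arose, had 2187 CPM ± 189 (SD), close to the WT mean of 2193. Mir7b was lowest in Q140, with 54.8 CPM ± 6.09 (SD), and next lowest in Q175, with 58.3 ± 6.65 (SD). Mir487b was lowest in Q175, with 897 CPM ± 61.5 (SD), and next in Q111, with 901 ± 83.5 (SD).

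The other microRNAs with higher values were less abundant or changed their call with single libraries. Mir218-2, which lies in an intron of Slit3 and is known from motor neurons, ran from 2043 over 2343 to 2580 CPM in Q175 and from 1647 over 2093 to 2501 in the controls (log2 difference 0.14, SE 0.06, edgeR's unadjusted p = 0.0418). Its main strand miR-218-5p is identical to that of Mir218-1, whose difference was -0.04 (edgeR's unadjusted p = 0.647). Mir322, which lies on the X chromosome, had a median of 168 CPM in Q175 and 163 in the controls (log2 difference 0.11, edgeR's unadjusted p = 0.0334, and 0.144 without Q175 male 4). Mir219a-1, whose strand miR-219a-5p is enriched in oligodendrocytes, had medians of 5.79 and 4.45 CPM (log2 difference 0.33, edgeR's unadjusted p = 0.0457). The second locus of the same strand, Mir219a-2, was counted at 437 CPM in Q175 and 455 in the controls, with a difference of -0.06. Mir1948, an intronic microRNA of Ttc39c, rested on 16 to 28 counts per library in Q175 and 10 to 26 in the controls (log2 difference 0.36, edgeR's unadjusted p = 0.0195). Gm26377, a hairpin that overlaps an exon of the translation factor gene Eef1a1, stayed under 1 CPM in all 24 libraries.

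Mir122, the main microRNA of hepatocytes, had the largest positive difference of the 532 microRNAs, at 2.39 on the log2 scale (SE 0.80, edgeR's unadjusted p = 0.00718). Its level ran from 0.180 CPM over a median of 1.59 to 54.4 in Q175 and from 0.219 over 1.07 to 8.60 in the controls. The value of 54.4 CPM, 321 counts, came from Q175 male 3, and without that mouse the difference was 0.86 (edgeR's unadjusted p = 0.151). Levels of Mir122 followed the L code. They lay between 5.68 and 8.60 CPM in the 4 libraries with the code L3, Q175 and control alike, at 54.4 CPM in the only L4 library, and between 0.180 and 1.90 CPM in the 19 others. In the L1, L2 and L3 libraries alone, which leave out Q175 male 3, the difference was 0.84 (edgeR's unadjusted p = 0.193). With the L code as a covariate in these libraries it was 0.27 (edgeR's unadjusted p = 0.442). With the outlier and shrinkage steps of the study's methods it was 0.04 (DESeq2's unadjusted p = 0.187). Mir192, a second microRNA of liver and gut, was also highest in Q175 male 3, with 1529 CPM against at most 1295 in the controls, and so was the sum of the 4 liver markers, with 1760 CPM. The liver sum ran from 1220 over a median of 1272 to 1760 CPM in Q175 and from 1131 over 1324 to 1451 in the controls, and Mir192 had medians of 1120 and 1171 CPM (log2 difference 0.02). The part of liver RNA or of the L code in the Mir122 difference was not tested beyond these values.

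Mir669a-2, from the large microRNA cluster in an intron of Sfmbt2, had values of 7.94 to 13.2 CPM in 3 Q175 mice and 10.3 CPM in 1 WT mouse, against at most 1.59 CPM in the other 20 libraries. Its median was 1.03 CPM in the controls and no higher in Q175, while the log2 difference was 1.51 (SE 0.63, edgeR's unadjusted p = 0.0249) and lost its unadjusted p under 0.05 without Q175 female 4 (0.0949, edgeR). It was 0.75 in the L1 and L2 libraries alone (edgeR's unadjusted p = 0.351) and 0.07 with the study's outlier and shrinkage steps. Among low microRNAs with lower values, Mir224, in an intron of the GABA receptor gene Gabre, was below the control median in all 8 Q175 mice, with 0.357 to 1.08 CPM against 0.200 to 1.82 (log2 difference -0.76, SE 0.31, edgeR's unadjusted p = 0.0204). Mir224 varied with the summed Mir200 and Mir183 level described below (Spearman's rho 0.58 over 24 libraries), and with that sum as a covariate, chosen after seeing the data, its difference was -0.47 (edgeR's unadjusted p = 0.205). With the study's steps it was -0.10. Mir211, in an intron of Trpm1 and a close relative of Mir204 with a shared run of 16 bases, had medians of 7.88 CPM in Q175 and 13.1 in the controls (log2 difference -0.51, SE 0.21, edgeR's unadjusted p = 0.0214). For Mir211 the study's steps gave -0.16, and the L1 and L2 libraries alone -0.31 (edgeR's unadjusted p = 0.245). Gm26303 stayed under 1 CPM in all libraries. Mir3962 had a difference of -2.92 (edgeR's unadjusted p = 0.0187), which came from 2 control libraries, both with the code L7, at 2.22 and 2.36 CPM, against at most 0.208 CPM in the other 22 libraries. The mature strand of Mir3962 (chr1:194822035-194822054, plus strand) is shown beside that of let-7g (chr9:106178846-106178867, plus strand), because both hold the same run of 17 bases, in capitals, and reads of that run fit both.
miR-3962: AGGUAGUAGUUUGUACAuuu
let-7g-5p: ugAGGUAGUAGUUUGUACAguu

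Of 25 lists of microRNA families and clusters, with 146 members tested, 22 had a median log2 difference within 0.1 of 0, and 18 held no member with an unadjusted p under 0.05. The median over all microRNAs was 0.01. The lists with a positive median above 0.1 in size were the Mir9 loci (0.12, 2 of 2 members positive) and the family of Mir99 and Mir100 (0.12, 3 of 3 positive, 1 with an unadjusted p under 0.05). The Mir148 and Mir152 family had a median of 0.10 with 3 of 3 members positive, of which Mir152 had medians of 52.4 CPM in Q175 and 52.2 in the controls. The only list with a negative median past 0.1 was that of Mir7 and Mir375, at -0.18 with 4 of 4 members negative. In it Mir7-2 differed by -0.20 (edgeR's unadjusted p = 0.0579) and Mir7-1 by -0.04, and Mir7b shares a run of 13 bases with the strand of Mir7-2. Mir375, a neuroendocrine microRNA, differed by -0.87 (SE 0.42, edgeR's unadjusted p = 0.0524), with 63.8 to 95.8 CPM in Q175 and 71.5 to 765 in the controls.

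The medians of the large families stayed close to 0. Single members lay farther out, from -0.11 to 0.83 in the list of the Mir17-92 cluster and its paralogs. In the Dlk1-Dio3 list they ran from -0.40 to 0.27. The let-7 family, which is abundant in differentiated neurons, had 8 of 10 members negative with a median of -0.02. The Dlk1-Dio3 cluster, whose microRNAs are expressed from the maternal allele and are numerous in the brain, had 21 positive and 25 negative members of 46 and a median of -0.00, with Mir487b the only member with an unadjusted p under 0.05. Mir127 of this cluster had a median of 103745 CPM in Q175 and 97274 in the controls, and each Q175 mouse exceeded the control median (log2 difference 0.09, edgeR's unadjusted p = 0.0897). Mir132 and Mir212, which depend on neuronal activity and CREB, differed by -0.05 and -0.00, and Mir221 and Mir222, which share a seed, by 0.03 and 0.02. The Mir15, Mir16, Mir195 and Mir497 family had 5 of 6 members positive with a median of 0.07, and the Mir17-92 cluster and its paralogs, known from proliferating cells, had 8 of 14 positive with a median of 0.01. The neuronal Mir124 loci had a median of -0.10 and the Mir128 loci of -0.07, with no unadjusted p under 0.05.

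**Figure D3:**
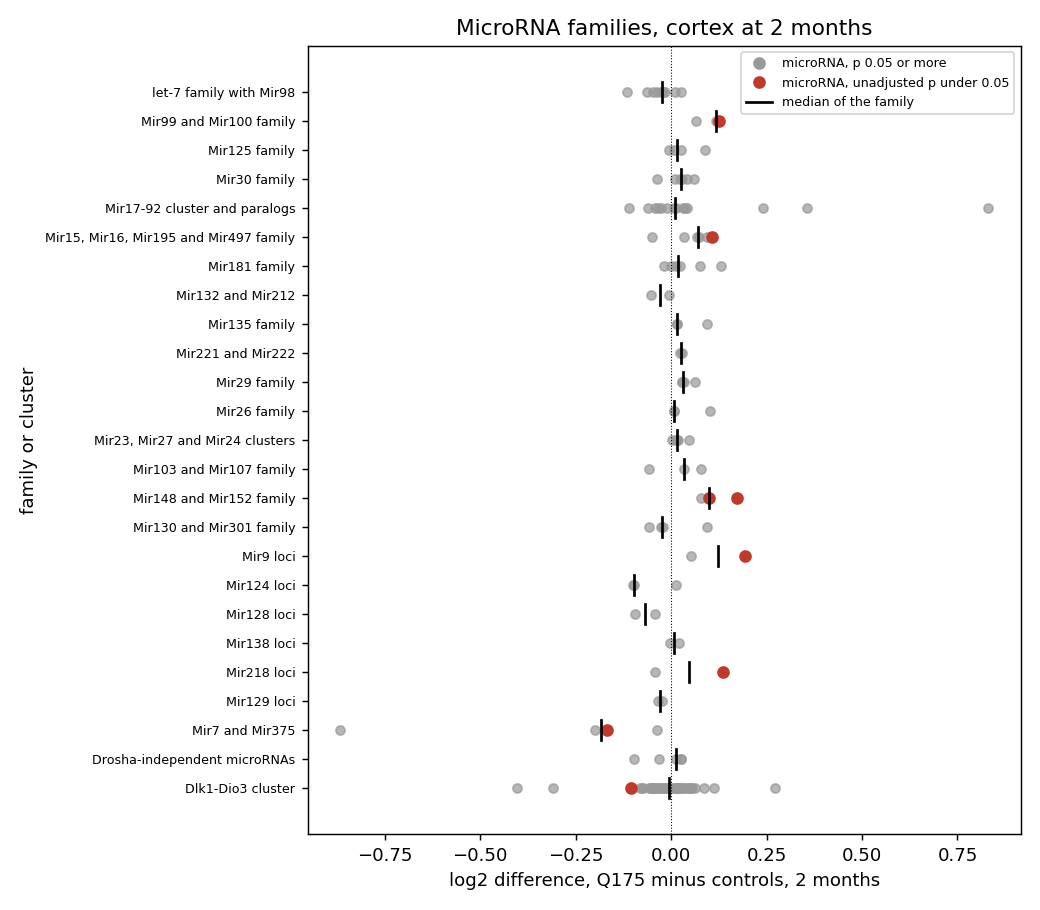
Log2 difference between Q175 (n = 8) and control (n = 16) cortex at 2 months (x axis) for the members of each of the 25 families and clusters (rows), with a point for each microRNA, in red where the unadjusted p was under 0.05, and a bar for the median of the family. The medians lie between -0.18 and 0.12, and Mir375 at -0.87 is the member farthest from 0.

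The lists for neighbouring tissue stood apart from the families in 1 respect. The 5 hairpins of the Mir200 loci and the 3 of the Mir183 cluster had log2 differences between -2.66 and -2.13, 8 of the 18 microRNAs (3.38% of those tested) with lower values and an unadjusted p under 0.05. Their values moved together from library to library, so they are not 8 separate observations. In a piece of tissue, fewer cells of a type and less RNA per cell cannot be told apart.

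Mir182, the most abundant of them, had a median of 313 CPM in Q175 and 9133 in the controls, yet its range was 169 to 16481 CPM in Q175 and 149 to 24043 in the controls (log2 difference -2.53, SE 1.06, edgeR's unadjusted p = 0.0257). Mir200b, whose seed AAUACUG is shared with Mir200c and Mir429, had a median of 43.0 CPM in Q175 and 507 in the controls, with ranges of 29.3 to 907 and 29.1 to 1303 (log2 difference -2.13, SE 0.81, edgeR's unadjusted p = 0.0156). Mir429 had 44.4 to 1820 CPM in Q175 and 52.9 to 2658 in the controls, with 4 Q175 mice below every control. Mir200a had 15.5 to 972 and 15.98 to 1369 CPM, and Mir141, with the same seed AACACUG, 2.01 to 901 and 1.67 to 1304 CPM. Mir183 had 20.1 to 2447 and 15.4 to 3488 CPM, Mir96 0.608 to 81.2 and 0.416 to 142 CPM, and Mir200c 0.180 to 119 and 0 to 170 CPM. In each of the 8, Q175 male 2 was high and the other 7 Q175 mice were under the median of the controls.

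Summed over the 8 microRNAs, the level ran from 277 to 33949 CPM over the 24 libraries, a range of 123-fold, while the ratio of the Mir183 sum to the Mir200 sum stayed between 1.48 and 4.84. In the 8 Q175 mice the sum ran from 309 over a median of 492 to 23728 CPM, and in the controls from 277 over 13118 to 33949. More than 1000 CPM were found in 3 of 8 Q175 mice, 8 of 8 Q20 mice and 4 of 8 WT mice. The lowest sum was that of a WT mouse and the highest that of a Q20 mouse, and the highest WT mouse had 27948 CPM. Between pairs of the 8 microRNAs, Spearman's rho over the 24 libraries was between 0.937 and 0.986, as a description of libraries that share these sources. Of the 286 other microRNAs with a mean of at least 10 CPM, 0 had a rho above 0.7 in size with the sum, and the highest was Mir375 with 0.58. The 2 highest Mir375 values, 765 CPM in Q20 female 3 and 343 CPM in WT male 1, came from libraries with Mir200 sums of 3500 and 5573 CPM. The highest Mir200 sum, 6803 CPM in Q20 male 2, was not among them. Q175 male 2 had a Mir200 sum of 4719 CPM, while Mir375 in the Q175 mice had a mean of 80.5 CPM ± 10.7 (SD, all genotypes normalized together). On log2 levels, Pearson's r of Mir375 with the sum was 0.43.

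**Figure D4:**
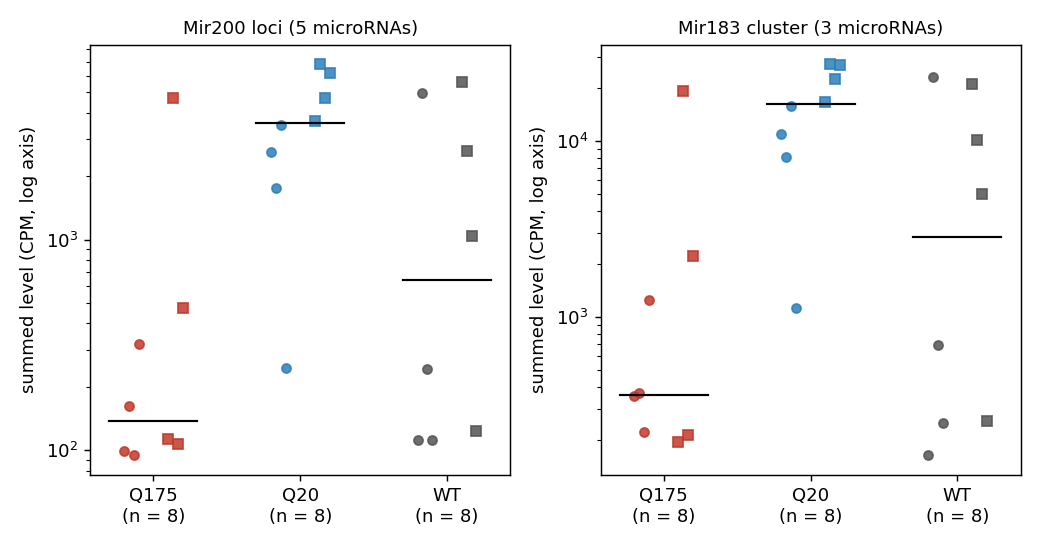
Summed level of the 5 Mir200 hairpins (left) and the 3 Mir183 hairpins (right) in each of the 24 libraries at 2 months (y axes, CPM on a log scale), by genotype (x axis, n = 8 each), with females as circles, males as squares and the median as a line. Medians are 137, 3573 and 639 CPM for Mir200 in Q175, Q20 and WT, and Q175 male 2 lies among the high control values with 4719 CPM for Mir200 and 19009 for Mir183.

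The same 8 microRNAs varied in the other lines of this age. Their sum was above 1000 CPM in 2 of 8 Q80, 1 of 8 Q92, 3 of 8 Q111 and 4 of 8 Q140 mice, with medians of 442, 325, 496 and 3178 CPM, and the highest mouse of each of the 7 genotypes had between 23684 and 36545 CPM. Against Q20 mice, Mir200b differed by -2.56 (edgeR's unadjusted p = 0.00354), and against WT mice by -1.66 (edgeR's unadjusted p = 0.134). Q20 mice were higher than WT mice by 0.89 (edgeR's unadjusted p = 0.300). DESeq2 called 8 of 531 microRNAs (1.51%) between Q175 and Q20 at an FDR of 0.05, where edgeR called 0. They were Mir99a with a log2 difference of 0.17 and 7 of these 8 loci, namely Mir96, Mir200b, Mir182, Mir429, Mir183, Mir200a and Mir141. Q175 male 2 was the highest Q175 mouse at these loci, so leaving it out enlarges the differences by construction. Without it the differences from all controls were -3.25 for Mir200b and -3.93 for Mir182, with edgeR's unadjusted p of 0.000510 and 0.00123. Leaving out Q175 female 2 instead gave an unadjusted p of 0.0495 for Mir182 and 0.0815 for Mir141 (edgeR). The study's methods remove libraries unlike the rest, replace outlying counts and shrink fold changes toward 0. The removal was not made here. With the other steps, the 8 log2 differences lay between -0.06 and -0.03. Mir200b (-0.06) and Mir429 (-0.06) were the ones with an unadjusted p under 0.05 (DESeq2). In the L1, L2 and L3 libraries alone, with the L code as a covariate, the differences were -1.80 for Mir200b (edgeR's unadjusted p = 0.0822) and -2.31 for Mir182 (edgeR's unadjusted p = 0.120). Without this covariate the same libraries gave -2.08 for Mir200b (edgeR's unadjusted p = 0.0198) and -2.51 for Mir182 (edgeR's unadjusted p = 0.0303). Within the code L2, 1 of 4 Q175 and 5 of 6 control libraries exceeded 1000 CPM. Within L1 these were 0 of 1 and 5 of 6, and within L3 2 of 2 and 1 of 2. Dissection, which the labels do not record per mouse, was not tested.

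The markers of other neighbouring tissues and blood overlapped between the groups, as the Mir200 and Mir183 sums also did. The choroid plexus list, led by Mir204, summed to 3499 to 6084 CPM in Q175 and 3228 to 4493 in the controls, and the highest value came from Q175 male 1. The same mouse had the highest sum of the ciliated cell list, led by Mir34c, with 1332 CPM against at most 887 in the controls. In it Mir448 and Mir1298, which come from the Htr2c locus on the X chromosome, had 70.7 and 737 CPM, against at most 46.9 and 391 in the controls. The log2 differences of Mir448 and Mir1298 were 0.31 and 0.29 (edgeR's unadjusted p = 0.0586 and 0.0711). The leukocyte list, which is mostly Mir150 of lymphocytes, summed to 1810 to 3632 CPM in Q175 and 1514 to 4295 in the controls. Mir150 lay at 3320 CPM in 1 Q175 mouse and at 3376 to 4041 CPM in 4 controls, 2 of them Q20 and 2 WT, and at most at 1892 CPM in the other 19 mice. Both L7 libraries, at 3888 and 3962 CPM, and 2 of the 4 L3 libraries, at 3320 and 3376 CPM, were among the high ones, and the part of the L code was not tested. The erythrocyte list summed to 3046 to 3875 CPM in Q175 and 2687 to 4370 in the controls, and the endothelial list to 22012 to 27197 and 18675 to 26861 CPM. For the Hox loci of hindbrain and spinal cord the sums were 378 to 622 and 349 to 554 CPM, where Mir196a-1, Mir196a-2 and Mir196b, which mark the spinal cord, had means under 1 count and were not tested. Oligodendrocyte markers summed to 3353 to 3795 CPM in Q175 and 3241 to 3938 in the controls, muscle markers to 182 to 244 and 178 to 255 CPM, and markers of fibroblasts and meninges, led by Mir199a-1, to 90.4 to 119 and 73.9 to 107 CPM. For these lists 0 of 3 Hox, 0 of 4 ciliated, 0 of 3 erythrocyte, 0 of 6 muscle, 0 of 3 endothelial, 0 of 4 leukocyte and 0 of 4 fibroblast members tested had an unadjusted p under 0.05, against 5.45% of all microRNAs. In the choroid plexus list Mir211 was the only such member, and in the oligodendrocyte list Mir219a-1. Their part in the differences of other microRNAs was not tested.

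The other comparisons at 2 months served to place these differences. At the FDR, edgeR called 0 of 531 microRNAs (0%) between Q175 and Q20, with 23 (4.33%) at an unadjusted p under 0.05. Between Q175 and WT it called 0 of 530 (0%), with 23 (4.34%) at that level, and DESeq2 also called 0, with 21. Between the control genotypes Q20 and WT it called 0 of 534 (0%), with 26 (4.87%), and DESeq2 called 0, with 29. The interaction of group and sex passed the FDR in edgeR for 0 of 532 microRNAs (0%), with 13 (2.44%) at an unadjusted p under 0.05, and DESeq2 likewise called 0, with 13. The share at an unadjusted p under 0.05 was thus 5.45% for Q175 against controls and 4.87% between the controls.

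At 10 months, edgeR called 42 of 507 microRNAs (8.28%) between 8 Q175 and 16 control mice, 19 higher (3.75%) and 23 lower (4.54%). With a replicate block 27 were called, 26 of them among the 42. With the summed Mir200 and Mir183 level as a covariate 27 were called as well, 24 of them among the 42, and all 42 had the same sign in both of these fits. These were mice of the same genotypes and of a separate age group. A control mouse titled female was fitted as male, by the sex of its cage. For 4 of 507 (0.789%) the groups did not overlap, namely Mir135b, Mir221, Mir222 and Mir615. All 42 were tested at 2 months, where 25 (59.5%) had the same sign, against 260 of 504 (51.6%) of all microRNAs tested at both ages. Only Mir148a of them had an unadjusted p under 0.05 at 2 months. The 19 that rose had a median log2 difference of 0.26 at 10 months and 0.03 at 2 months, and the 23 that fell -0.37 and 0.02. For 40 of 42, the 10-month difference lay outside the 95% interval of the 2-month difference, and Mir375 and Mir128-1 were the exceptions. This count leaves out the error of the 10-month difference, and the 42 were picked by their 10-month p, so it does not test a change with age. In a fit with an interaction of group and age, the interaction passed the FDR for 23 microRNAs (4.46%), 22 of them among the 42. The interaction uses the same 10-month libraries that picked the 42, so this overlap is partly built in. It was not fitted with the replicate block or with the summed level as a covariate.

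Mir135b, which lies in an intron of Lemd1, had 69.3 CPM ± 5.52 (SD, n = 8) in Q175 and 68.6 ± 4.33 (SD, n = 16) in the controls at 2 months, a log2 difference of 0.02 with a 95% interval from -0.09 to 0.12. At 10 months it had 47.2 CPM ± 2.61 (SD, n = 8) and 72.2 ± 8.86 (SD, n = 16), a log2 difference of -0.61 (edgeR's adjusted p = 1.25e-06). Mir221 had 2202 to 2927 CPM in Q175 and 2077 to 2854 in the controls at 2 months, and at 10 months 1736 to 2065 and 2105 to 3044 CPM, with no overlap. Mir222, from the same locus, differed by 0.02 at 2 months and by -0.31 at 10 months. The activity-dependent Mir132 and Mir212 went from -0.05 and -0.00 to -0.37 each. Mirlet7i and Mir674 fell at 10 months by 0.19 and 0.28 on the log2 scale and differed by 0.02 and 0.01 at 2 months. The mature strands of these pairs are shown because each pair shares a seed.
miR-221-3p: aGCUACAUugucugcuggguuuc
miR-222-3p: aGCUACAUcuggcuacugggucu
miR-132-3p: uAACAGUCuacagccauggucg
miR-212-3p: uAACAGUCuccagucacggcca

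Among the microRNAs that rose at 10 months, Mir615, which lies in an intron of Hoxc5, differed by 2.19 at 10 months and by 0.46 at 2 months, when its level was 0.180 to 1.81 CPM in Q175 and 0.182 to 1.52 in the controls. The Sfmbt2 microRNAs Mir669c, Mir467e and Mir467a-1 differed by 0.75, 0.92 and 0.59 at 10 months and by 0.07, -0.00 and 0.06 at 2 months. Mir181a-1 and Mir181a-2 differed by 0.22 each at 10 months and by 0.00 and 0.02 at 2 months. Mir195a and Mir497b differed by 0.33 and 0.39 at 10 months and by 0.07 and 0.03 at 2 months.

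Mir148a had a positive log2 difference of 0.17 at 2 months, which did not pass the correction, and fell at 10 months by 0.33 on the log2 scale (edgeR's adjusted p = 0.0155). At 10 months it ran from 902 over 1091 to 1285 CPM in Q175 and from 1132 over 1356 to 2088 in the controls, and the change between the ages was -0.48 (edgeR's adjusted p = 0.00704). With the summed Mir200 and Mir183 level as a covariate, its 10-month difference was -0.26 and did not pass the FDR (edgeR's adjusted p = 0.114). The choroid plexus microRNAs Mir204, Mir448, Mir1298 and Mir1912 differed by 0.03, 0.31, 0.29 and 0.45 at 2 months and fell by 0.72, 1.52, 1.40 and 1.87 on the log2 scale at 10 months, when the summed choroid plexus level was 2626 to 3156 CPM in Q175 and 2644 to 11776 in the controls. These 4 choroid plexus microRNAs did not pass the FDR at 10 months with the replicate block (edgeR's adjusted p from 0.0797 to 0.231) or with the summed Mir200 and Mir183 level as a covariate (from 0.0992 to 0.187). Part of the range of the controls came from Q20 mice, whose median was 5571 CPM against 3328 in WT. The Mir200 sum, by contrast, was low in both groups at 10 months, at 116 to 196 CPM in Q175 and 116 to 365 in the controls. The Mir183 sum was then 123 to 832 CPM in Q175 and 201 to 1375 in the controls.

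**Figure D5:**
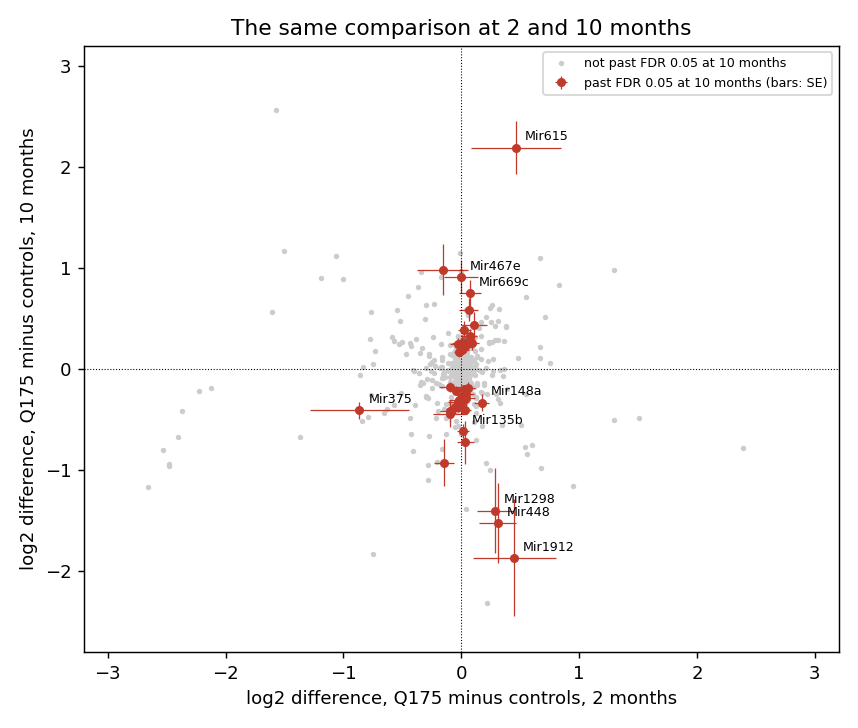
Log2 difference between Q175 and control cortex at 2 months (x axis) against that at 10 months (y axis), with 8 Q175 and 16 control mice at each age; each point is a microRNA tested at both ages, in red with bars for the standard error where it passed an FDR of 0.05 at 10 months. The red points spread along the 10-month axis, as for Mir135b with 0.02 and -0.61 and Mir615 with 0.46 and 2.19, while Mir148a has 0.17 and -0.33.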

How the data were processed

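Small RNA of the cortex was sequenced on HiSeq2000 in strand-specific single 36-base reads; the methods name clipped reads, STAR alignment to mm10 and HTSeq, and the submitters' processing notes name CASAVA 1.8.2. The authors deposited an estimated count per Ensembl transcript without normalization, for 1626 transcripts in 168 libraries. Of the values above 0, 48.9% were not whole, and they were rounded. The counts hold no separate arms, and loci with the same mature strand share reads. FPKM values of the same transcripts were not used. GENCODE vM21 (GRCm38) named 1228 transcripts, and the 398 others held 0.622% of counts and were not tested.

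The 24 libraries were grouped by title. No libraries were identical (0 pairs). The fit was edgeR 4.0.16 (R 4.3.3), robust quasi-likelihood F test, with TMM factors, sex as a covariate, microRNAs with a mean of at least 1 count in the libraries fitted, and Benjamini-Hochberg adjustment to an FDR of 0.05. Intervals are 95% with 21 residual degrees of freedom. DESeq2 1.42.0 was an alternative, with filters, other scalings, the study's list, a replicate block, the L code and each library left out. The L code as a covariate was fitted in the L1, L2 and L3 libraries alone. The study's steps were fitted with all 24 libraries, without the study's removal of libraries with a standardized connectivity under -5. Of all libraries of 2 months, 2 lay under -5, and the lowest of the 24 was at -6.66. Depth of the 24 libraries was 4505007 to 6109577 counts, and a level under 1 CPM rests on few counts. The 10-month libraries used ran from 2041741 counts (Q20 male 2) to 6047532 (Q175 female 3). The L code was not fitted at 10 months. At 10 months a Q20 mouse titled female carries a cage code otherwise held by males of that age. The sex of the cage was used where the label differed. This mouse was therefore fitted as male, also in the fit with an interaction of group and age. Fits with its labelled sex are not given here. Statistics were tested on simulated data.

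Named were the 12 microRNAs per direction with the smallest unadjusted p under 0.05 at 2 months, the 8 per direction with the smallest p past the FDR at 10 months, and of each list the members with the smallest p or the highest level. Mir152, Mir1912, Mir7-1, Mir218-1 and Mir219a-2, and the values by L code, were added after their values were seen. List members with no named transcript were not analysed here. Members and lists were chosen with earlier results of these data known. The study's list of microRNAs was matched for 329 of 480 symbols. P-values measure the spread between mice of 1 line and housing group.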

Additional observations from a re-analysis of the deposited data

Results flagged for a closer look

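Of 108 groups of 8 libraries looked at, 25 held a library far from the rest. The groups share libraries, several hold microRNAs that moved together, and some rest on few counts, so the 25 cannot be set against a chance rate. Q175 male 2 stood apart from the other Q175 mice at 2 months in Mir200b (907 CPM), Mir429 (1820), Mir96 (81.2), Mir200a (972), Mir182 (16481), Mir183 (2447) and Mir224 (1.08), and in the Mir200 sum (4719 CPM) and the Mir183 sum (19009 CPM). Q175 male 3 stood apart in Mir122 (54.4 CPM) and the liver sum (1760 CPM), Q20 female 4 in Mir122 (5.68 CPM) and WT female 4 in Mir122 (8.60 CPM). Q175 male 1 was high in the choroid plexus sum (6084 CPM) and the ciliated cell sum (1332 CPM). Q175 male 4 was high in Mir148b (1181 CPM) and the Hox sum (622 CPM), and Q175 female 4 in the leukocyte sum (3632 CPM) and the neuron sum (117908 CPM). Q20 female 2 was low in the fibroblast sum (73.9 CPM). Mir669a-2 was 0 CPM in Q20 male 4 and 10.3 CPM in WT male 1. Mir3962 stood at 0.183 CPM in Q175 female 3, 2.22 in Q20 male 4 and 2.36 in WT male 4, against 0 to 0.208 in their groups.

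The Q175 difference changed between 2 and 10 months for 23 microRNAs in edgeR's interaction test. Lower at 10 months than at 2 months on the log2 scale were the differences of Mir135b (-0.60), Mir221 (-0.41), Mir222 (-0.31), Mir212 (-0.35), Mir132 (-0.30), Mirlet7i (-0.19), Mir674 (-0.27) and Mir148a (-0.48), and of the choroid plexus microRNAs Mir448 (-1.79), Mir1298 (-1.65), Mir1912 (-2.29) and Mir204 (-0.73). Higher were those of Mir669c (0.70), Mir467e (0.96), Mir467a-1 (0.55), Mir615 (1.76), Mir497b (0.39), Mir181a-1 (0.24) and Gm26303 (2.67).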

How the results depend on the processing

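For Q175 against controls at 2 months, 0 microRNAs passed the FDR under each of the 43 alternative settings, with a smallest adjusted p of 0.0858 without Q175 male 2, and leaving out 1 library gave 0 to 0 calls and 22 to 35 microRNAs at an unadjusted p under 0.05 (29 with all libraries). That number was 19 of 327 with the study's list, 62 of 1007 with no filter on low counts, 17 of 529 with the outlier and shrinkage steps of the study's methods, and 19 of 534 with only the L1 and L2 libraries. With the study's list Q175 against WT and Q20 against WT each gave 14, and with no filter the interactions with sex and with age gave 34 and 124. Q175 against Q20 gave 8 calls with DESeq2 and 0 with edgeR. At 10 months the replicate block gave 27 calls and the summed Mir200 and Mir183 level as a covariate also 27, in place of 42. At 2 months the replicate block gave 0 calls and 30 at an unadjusted p under 0.05. The pairing was checked over 24 pairs of same-numbered mice, whose deviations correlated between -0.63 and 0.85, with 11 of 24 over 0.1. Pairs of mice with different numbers were not compared, and some same-numbered mice share an L code. The check therefore does not decide whether the numbers pair the mice. With the summed level as a covariate, chosen after seeing the data, Mir182 (0.0398), Mir183 (0.105), Mir141 (0.0512) and Mir200c (0.318) turned positive. This covariate is built from these microRNAs. The cause of the other shifts was not tested. The study's steps shrink fold changes by construction: Mir182 (-0.05), Mir200b (-0.06), Mir141 (-0.03), Mir122 (0.04) and Mir669a-2 (0.07) came close to 0, while Mir99a (0.12) and Mir487b (-0.10) moved little. Scaling moved the median log2 difference of all microRNAs only between 0.00 and 0.01. At these depths, Mir122, Mir224, Mir1948, Mir615 and Mir669a-2 rest on few counts in most libraries.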
